A study of Mus musculus with 14 samples.

Results

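The chondrogenic Sox trio is made of 3 genes, Sox9, Sox5 and Sox6, which were taken by name from the annotated expression tables and followed by Ensembl identifier in the count table of 30503 genes. All 3 passed the filter on low counts, as did 17358 of the 30503 genes. SOX9 is the transcription factor without which mesenchymal cells do not become chondrocytes. SOX5 and SOX6 are close relatives of each other that lack a transactivation domain of their own, bind DNA as dimers, and act beside SOX9 on the enhancers of cartilage genes such as Col2a1 (type II collagen) and Acan (aggrecan). In bone-forming cells the osteoblast factors Runx2 and Sp7 act instead, and SOX9 is known to hold RUNX2 back.

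The RNA came from 14 cultures of tdTomato+ cells of mouse femoral bone marrow. By the methods each culture was grown from 1 colony of a single founder cell, and the distal epiphyseal growth plate had been cut away before the marrow cells were isolated. Every mouse carried the tamoxifen-inducible Cre driver Fgfr3-creER, a transgene active in cells that express Fgfr3, and 1 copy of the R26R-tdTomato Cre reporter, and received tamoxifen at postnatal day 21. The 5 Fgfr3-WT (P23) clones had the genotype Fgfr3-creER; R26R(tdTomato/+), were isolated at postnatal day 23 and were sequenced at passage 8. The 5 Fgfr3-p53 cKO (P28) clones and the 4 Fgfr3-p53 cKO (P4M) clones had in addition both floxed alleles of the tumor suppressor gene Trp53 (Trp53fl/fl). The former were isolated at postnatal day 28 and sequenced at passage 8, and the latter were isolated at 4 months and sequenced at passages 6 to 8. The groups therefore differed in genotype, age and time since tamoxifen. They differed in culture history as well. The paper reports faster growth of cKO than of WT clones, with a larger share of cKO clones surviving serial passage. Equal passage numbers thus do not mean equal time in culture or equal selection among clones. The part of culture history in the differences between WT and cKO clones was not tested. The library names of all WT clones begin with 1303 and those of all cKO clones with 2963, so genotype and whatever this number marks cannot be told apart. The labels do not tie clones to mice, so p-values measure the spread between these clones. Clone numbers below are running numbers within each group.

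The libraries held 25688946 to 52857424 counts. Trp53, the deleted gene, lay between 38.1 and 59.7 TPM (transcript counts scaled by length and library size) in the WT clones and between 1.55 and 2.80 TPM in the 9 cKO clones, with no overlap. Of the markers of other cell types, the immune gene Ptprc reached at most 6 counts, the endothelial genes Cdh5 and Cldn5 and the muscle genes Myod1, Myog and Pax7 were at 0 in every clone, and the glial gene Sox10, a close relative of Sox9, reached at most 3 counts. The stromal receptor Pdgfrb was read in every clone, at 54.5 to 170.0 TPM. So were the stromal genes Pdgfra (2.6 to 28.4 TPM) and Ly6a (10.8 to 385 TPM). Prrx1, Col1a2, Thy1, Twist2 and Eng fell to 1.58 TPM or less in some clones, with Col1a2 at 0.04 to 9089 TPM. Some listed markers of other cell types were read, with Cd68 at up to 66.0 TPM, Tubb3 107, Nes 27.3, Mitf 12.5 and Kdr 3.12 TPM. Because these are bulk libraries, fewer cells with a transcript and less of it per cell cannot be told apart.

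The 3 proteins share the HMG box, the DNA-binding fold of the family, and its coding bases are shown because they are the part in which the genes could share reads of 50 bases. The stretch below is the 255 coding bases over which all 3 genes aligned without a gap, in the transcript with the longest coding sequence of each (GENCODE transcripts, mm10), 5′ to 3′ on the coding strand. Capitals mark the 131 bases (51.4%) that are the same in all 3 genes.
Sox9 (exons 1 and 2, chr11:112782873-112783920, plus strand): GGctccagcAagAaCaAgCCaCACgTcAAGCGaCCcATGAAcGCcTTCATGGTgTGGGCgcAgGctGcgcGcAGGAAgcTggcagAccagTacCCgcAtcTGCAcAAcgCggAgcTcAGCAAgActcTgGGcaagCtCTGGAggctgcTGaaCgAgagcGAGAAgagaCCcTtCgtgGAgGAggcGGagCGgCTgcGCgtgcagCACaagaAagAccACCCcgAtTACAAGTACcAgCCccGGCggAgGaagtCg
Sox5 (exons 13 and 14, chr6:143835288-143841303, minus strand): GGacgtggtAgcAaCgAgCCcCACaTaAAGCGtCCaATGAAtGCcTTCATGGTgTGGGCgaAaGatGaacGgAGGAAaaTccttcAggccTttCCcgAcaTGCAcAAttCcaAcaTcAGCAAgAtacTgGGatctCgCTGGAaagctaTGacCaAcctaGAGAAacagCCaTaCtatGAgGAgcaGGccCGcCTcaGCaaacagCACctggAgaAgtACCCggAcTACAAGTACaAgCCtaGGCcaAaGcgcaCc
Sox6 (exons 15 and 16, chr7:115486640-115489792, minus strand): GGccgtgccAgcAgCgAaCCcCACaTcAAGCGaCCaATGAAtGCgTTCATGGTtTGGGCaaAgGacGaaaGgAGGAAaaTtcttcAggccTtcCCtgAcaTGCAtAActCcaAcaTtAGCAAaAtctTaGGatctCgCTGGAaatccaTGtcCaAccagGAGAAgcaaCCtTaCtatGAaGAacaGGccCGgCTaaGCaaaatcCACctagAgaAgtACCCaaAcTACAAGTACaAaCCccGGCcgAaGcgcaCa
Sox5 and Sox6 were the same at 82.0% of these bases, Sox9 and Sox5 at 60.0%, and Sox9 and Sox6 at 56.5%. The longest run without a difference was 18 bases between Sox9 and Sox5 and 15 bases between Sox5 and Sox6, below the read length of 50 bases. Over the annotated transcripts, 0 of the 4086 stretches of 50 bases of Sox9 and 0 of the 14907 of Sox6 occurred in a transcript of another gene. Of the 14537 stretches of Sox5, 1306 (8.98%) did, and 0 of them lay in Sox9 or Sox6. Antisense and intronic genes that overlap Sox5 and Sox6 were counted at 24 reads or fewer in every clone. The library kit does not mark strand.

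The promoters bear on which transcripts could be read. Sox9 has 1 annotated transcript of 4135 bases, whereas Sox5 has 14 (7 coding) and Sox6 has 16 (10 coding), with several starts. RefSeq promoter windows of 300 bases (250 before and 50 after a start, GRCm38.p6, the assembly of mm10) were given for Sox5 and Sox6. The window of Sox5, at an internal start of the short transcripts, and the Sox6 window of the transcript whose box is printed above are shown, with each match to ACAAT, the core letters of SOX sites, on either strand in capitals.
Sox5 (chr6:143947057-143947356, minus strand): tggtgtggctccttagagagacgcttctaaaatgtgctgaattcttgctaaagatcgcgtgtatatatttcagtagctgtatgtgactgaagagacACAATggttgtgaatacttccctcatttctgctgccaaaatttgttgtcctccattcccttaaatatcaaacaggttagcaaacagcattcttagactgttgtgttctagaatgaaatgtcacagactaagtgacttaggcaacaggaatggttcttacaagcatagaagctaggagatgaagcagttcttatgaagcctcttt
Sox6 (chr7:115995037-115995336, minus strand): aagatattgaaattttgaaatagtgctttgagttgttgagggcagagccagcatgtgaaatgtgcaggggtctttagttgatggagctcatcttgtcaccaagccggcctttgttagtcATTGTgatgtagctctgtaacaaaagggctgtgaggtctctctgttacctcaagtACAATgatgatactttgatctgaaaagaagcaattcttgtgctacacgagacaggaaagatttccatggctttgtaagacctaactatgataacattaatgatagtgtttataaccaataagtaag
The Sox5 window holds 1 match, which extends to the longer motif ACAATGG, and the Sox6 window holds 2 matches to the core and none to the longer motif. Of 32851 windows of the same length, 31.0% hold the core and 3.66% the longer motif, which contains the core.

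Sox9 (ENSMUSG00000000567, chr11:112782224-112787760, plus strand) was lower in every cKO clone than in any WT clone. Its level was 68.1, 37.4, 56.6, 47.7 and 34.8 TPM in WT clones 1 to 5. It was 23.6, 10.1, 15.7, 9.18 and 7.74 TPM in P28 cKO clones 1 to 5, and 1.92, 1.42, 10.4 and 6.19 TPM in P4M cKO clones 1 to 4. The WT clones thus all lay above both cKO groups, and the cKO groups overlapped, since P4M clone 3 lay above 3 of the P28 clones. Group means were 48.9 ± 13.8 TPM (SD, n = 5), 13.3 ± 6.50 TPM (SD, n = 5) and 4.97 ± 4.19 TPM (SD, n = 4).

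On the log2 scale of the count model, Sox9 fell by 2.16 ± 0.501 (SE) in the P28 clones against WT, a 4.47-fold difference (adjusted p = 0.00457, edgeR). In that comparison 19.7% of all genes tested were called lower and 19.2% higher, where called means a Benjamini-Hochberg false discovery rate (FDR) under 0.05 over all genes. In the P4M clones against WT Sox9 fell by 3.39 ± 0.578 (SE), or 10.5-fold (adjusted p = 0.000536, edgeR), beside 23.6% of genes called lower and 22.3% higher. Without P4M clone 3 the value was -4.04. Between the cKO groups Sox9 was not called: the log2 difference was -1.23 ± 0.526 (SE; adjusted p = 0.161, edgeR), and -1.88 without P4M clone 3 (adjusted p = 0.0568, edgeR). That comparison called 3.88% of genes lower and 3.34% higher in P4M clones. Both comparisons with WT share the WT clones.

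Sox5 (ENSMUSG00000041540, chr6:143828425-144781977, minus strand) had the widest relative range of the 3 among the P28 clones and was lowest in the P4M clones. WT clones 1 to 5 held 26.4, 6.43, 10, 4.81 and 13.9 TPM. P28 cKO clones 1 to 5 held 1.38, 0.81, 4.98, 10.5 and 8.39 TPM, and P4M clones 1 to 4 held 0.51, 0.15, 0.15 and 0.44 TPM. In TPM, P28 clones 3, 4 and 5 lay inside the WT range and P28 clones 1 and 2 below it. In counts per library size (CPM), which use no length, only P28 clone 4 (30.9 CPM) lay inside the WT range of 22.3 to 93.3 CPM, with clone 5 at 21.5 CPM and clone 3 at 13.0 CPM. On both scales every P4M clone lay below every other clone. Group means were 12.3 ± 8.64 TPM (SD, n = 5), 5.22 ± 4.25 TPM (SD, n = 5) and 0.312 ± 0.190 TPM (SD, n = 4). Behind the P4M values stood 59, 16, 35 and 52 counts, all above the 3 counts that were set as the floor.

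Sox5 was not called in the P28 clones against WT, with a log2 difference of -1.51 ± 0.605 (SE; adjusted p = 0.0630, edgeR). This value depended on the clones. Without WT clone 1, the clone with the most Sox5, it was -1.0 (adjusted p = 0.182, edgeR). Without P28 clone 4 the difference was -1.98 (adjusted p = 0.0276, edgeR), and without P28 clones 4 and 5 it was -2.60 (adjusted p = 0.0132, edgeR), both called. DESeq2 called it on all clones (adjusted p = 0.0394). In the P4M clones Sox5 fell by 5.62 ± 0.805 (SE) against WT, or 49.2-fold (adjusted p = 0.000182, edgeR). It also fell by 4.11 ± 0.749 (SE) against the P28 clones, or 17.3-fold (adjusted p = 0.00978, edgeR), where the groups did not overlap. Without P28 clones 4 and 5 that difference was -3.01 (adjusted p = 0.018, edgeR).

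Sox6 (ENSMUSG00000051910, chr7:115470872-116038796, minus strand) fell in both cKO groups against WT. Its level in WT clones 1 to 5 was 5.17, 8.43, 11.9, 7.22 and 2.63 TPM. It was 5.58, 4.56, 2.56, 2.58 and 2.13 TPM in P28 cKO clones 1 to 5 and 1.17, 0.84, 0.15 and 0.98 TPM in P4M clones 1 to 4. The WT and P28 ranges overlapped, and every P4M clone lay below every other clone. Group means were 7.07 ± 3.48 TPM (SD, n = 5), 3.48 ± 1.5 TPM (SD, n = 5) and 0.785 ± 0.444 TPM (SD, n = 4). Sox6 fell by 1.51 ± 0.436 (SE) in P28 clones against WT (2.85-fold, adjusted p = 0.0151, edgeR). It fell by 4.57 ± 0.549 (SE) in P4M clones against WT (23.8-fold, adjusted p = 6.1e-05, edgeR) and fell by 3.06 ± 0.510 (SE) in P4M against P28 clones (8.36-fold, adjusted p = 0.00722, edgeR). Without P28 clones 4 and 5, the difference between P28 and WT was -1.31 and was not called (adjusted p = 0.0842, edgeR).

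**Figure D1:**
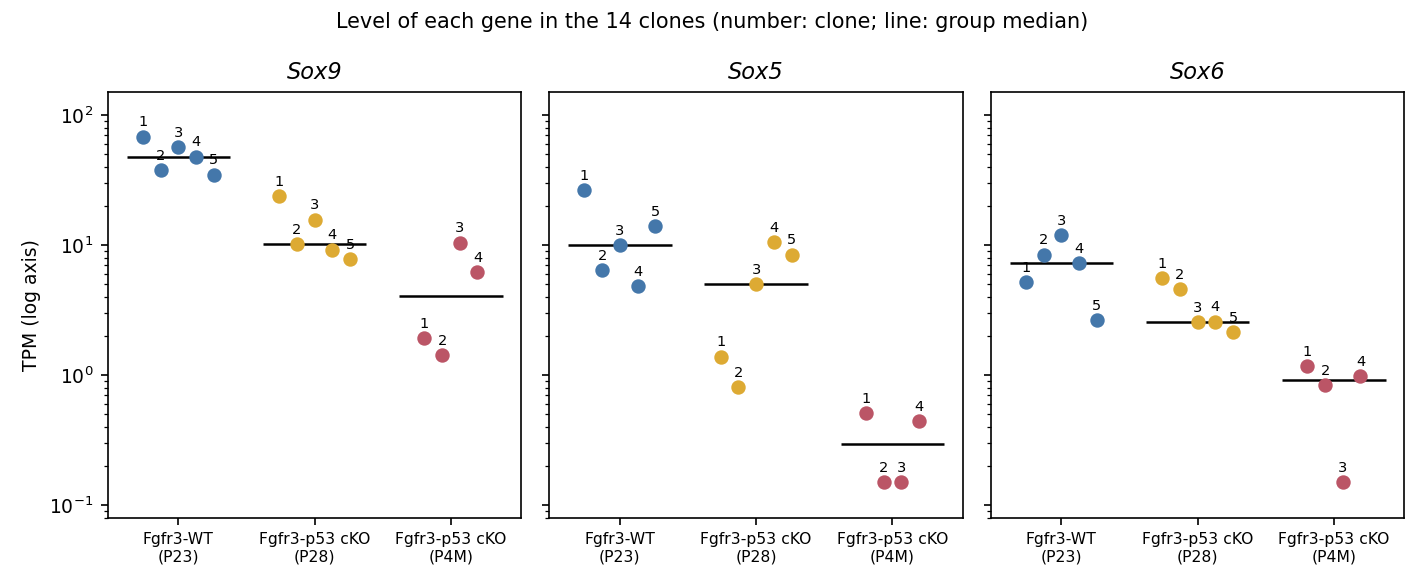
TPM of Sox9, Sox5 and Sox6 on a log axis in each of the 14 clones (points, with the clone number), by group, with the group median as a line. The WT points of Sox9 lie between 34.8 and 68.1 TPM, above all cKO points, while Sox5 spreads from 0.81 to 10.5 TPM among the P28 clones and stays at or below 0.51 TPM in the P4M clones.

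With all 9 cKO clones set against WT (the mean of both group means), the 3 genes were lower: Sox9 fell by 2.78 ± 0.419, Sox5 fell by 3.57 ± 0.532 and Sox6 fell by 3.04 ± 0.376 on the log2 scale (SE; adjusted p = 0.000185, 0.00017 and 4.67e-05, edgeR). In this comparison 25.7% of genes were called lower and 23.1% higher, and the median over all genes tested was -0.05. In the joint test of any difference among the 3 groups, which called 50.6% of genes, the 3 genes had adjusted p-values of 0.000585, 0.00039 and 0.000112 (edgeR). Leaving out each clone in turn kept every call of a member in every comparison, and the single gain was Sox5 in P28 clones against WT.

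**Figure D2:**
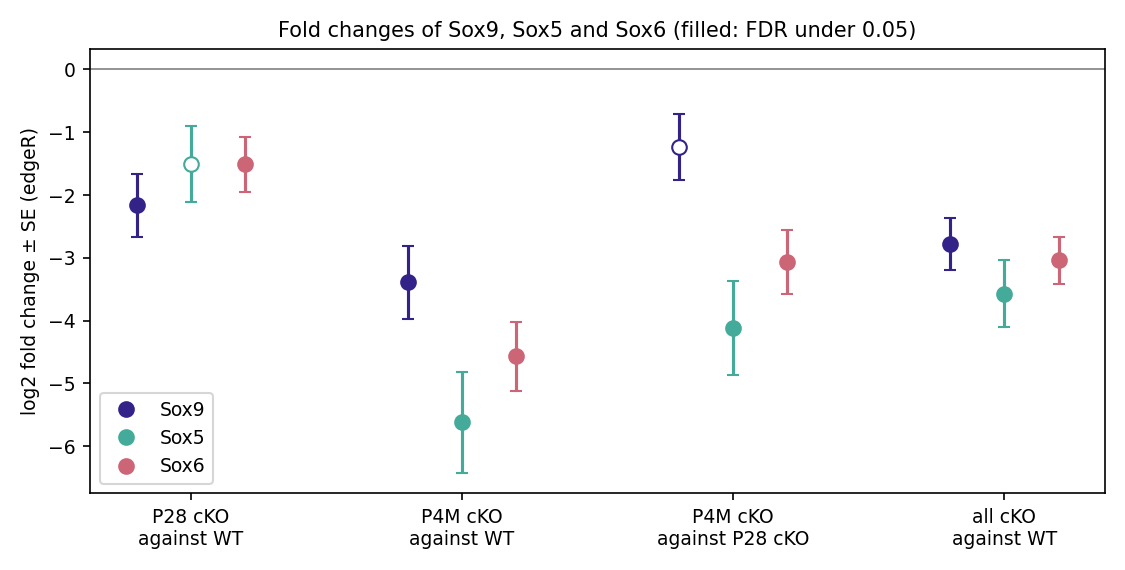
Log2 fold changes of the 3 genes (points) with their standard errors (bars) in the 4 comparisons, from edgeR, filled where the FDR was under 0.05 and open where it was not. All 12 values lie below 0, from -1.23 to -5.62, and the open points are Sox5 in P28 against WT and Sox9 in P4M against P28.

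The order of the 3 levels was not the same in every clone. Sox9 stood above both others in all 5 WT clones, whereas the ranges of Sox5 and Sox6 overlapped in each of the 3 groups. In WT clones 2, 3 and 4 Sox6 stood above Sox5. Sox9 gave 67.8% to 79.9% of the summed TPM of the 3 genes in the WT clones. In P28 clones 4 and 5 its share was 41.2% and 42.4%, below that of Sox5 at 47.2% and 45.9%, so that in these clones alone Sox5 stood above Sox9. In P4M clone 3 Sox9 gave 97.2%. The log2 ratio of Sox5 to Sox9 was -2.21 ± 0.85 (SD, n = 5) in WT, -1.81 ± 2.01 (SD, n = 5) in P28 and -3.71 ± 1.73 (SD, n = 4) in P4M clones. None of the 12 differences between groups in the ratios Sox5/Sox9, Sox6/Sox9 and Sox5/Sox6 passed after adjustment over 16 ratio tests. The lowest adjusted value among them was 0.152, for Sox6/Sox9 in P28 against WT, where the log2 ratio differed by 1.01 and exact permutation gave a two-sided p of 0.0476.

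Within groups the 3 genes did not vary together. As a description over the 14 clones, after the group means were taken out, the correlation (Pearson r of log2 CPM, counts scaled by library size) was -0.10 between Sox9 and Sox5, 0.01 between Sox9 and Sox6 and -0.26 between Sox5 and Sox6. The values of 1 clone share its library. The genes whose variation within groups was most like that of Sox9, among 12071 genes, were Map2k1 (MEK1, a kinase of the ERK pathway; r = 0.89), Zfat (0.87) and Pde3a (a phosphodiesterase; 0.85). For Sox5 they were Cobll1, Mtmr4 and Gopc (0.91, 0.91 and 0.88), and for Sox6 they were Piezo2 (a mechanically gated channel; 0.85), Aldh18a1 (0.83) and Tbc1d19 (0.83). For each member these are the highest of 12071 values over 14 clones. Whether so many genes would give values as high by chance was not tested.

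The genes that SOX9, SOX5 and SOX6 are known to act on in cartilage were mostly lower in cKO clones as well. Of 20 matrix and cartilage genes on the list, 17 passed the filter, and 13 of these were called lower and 0 higher in cKO against WT clones, where 25.7% of all genes were called lower, with a median log2 fold change of -4.16 beside -0.05 over all genes. The list was composed with earlier results known. In P28 clones 10 were called lower and 1 higher against WT (median -2.39; 19.7% of all genes lower), and in P4M clones 14 were called lower and 0 higher (median -5.82; 23.6% of all genes lower). Between the cKO groups, 3.88% of all genes were called lower and 3.34% higher in P4M clones. Of the 17, 3 (Col2a1, Col27a1 and Comp) were called lower and 1 (Wwp2) higher. Those 4 calls fell to 1 without P28 clone 1 or P4M clone 1, 2 or 4, and to 2 without P28 clone 2, 3 or 4. The 3 genes that did not pass, Matn1, Epyc and Snorc, reached 355, 5 and 27 counts in WT clones and at most 5 in any cKO clone.

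Col2a1 held 74.3, 1461, 1913, 5426 and 451 TPM in WT clones 1 to 5. It held 331, 193, 262, 457 and 48.2 TPM in P28 clones and 14.8, 12.5, 1.03 and 0.90 TPM in P4M clones. WT clone 1, which had the most Sox9 and Sox5 of all clones, had the least Col2a1 of the WT clones, inside the P28 range. The log2 fold change of Col2a1 was -5.68 ± 0.974 (SE) in cKO against WT clones (adjusted p = 0.000425, edgeR), and -4.61 without WT clone 4.

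Ucma, which encodes a secreted cartilage matrix protein, held 78.5, 1114, 1566, 7575 and 0.86 TPM in WT clones 1 to 5. It reached at most 20.5 TPM in the P28 clones and 0.11 TPM in the P4M clones. Col9a3 (a chain of type IX collagen) held 3.21, 207, 236, 196 and 4.15 TPM in WT clones and between 0.16 and 0.96 TPM in the cKO clones, and fell by 9.20 ± 1.112 (SE) on the log2 scale in cKO clones (adjusted p = 4.09e-05, edgeR). WT clones 1 and 5 were the low ones for Col9a3 and for Cnmd (chondromodulin; 0.98 and 0.05 TPM, beside 1014, 390 and 180 TPM in clones 2 to 4), although WT clone 5 held 34.8 TPM of Sox9 and 13.9 TPM of Sox5.

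The 4 other genes tested, Col11a1, Comp, Matn3 and Wwp2, were not called in cKO against WT with all clones. Comp was called without WT clone 1, WT clone 5 or P28 clone 1 (-2.58, -2.55 and -2.91), Col11a1 without WT clone 5 or P4M clone 2 (-1.31 and -1.32) and Wwp2 without P4M clone 4 (-0.56). Col11a1, a chain of type XI collagen, was at 65.2 to 463 TPM in WT, 256 to 433 TPM in P28 and 7.97 to 126 TPM in P4M clones. Comp (cartilage oligomeric matrix protein) reached 355 TPM in P28 clone 1 and stayed at or below 1.78 TPM in every P4M clone. Its difference between P4M and P28 clones was -7.16 ± 1.663 (SE; adjusted p = 0.0242, edgeR). Matn3 was called higher in P28 clones against WT (2.38 ± 0.799, SE; adjusted p = 0.0304, edgeR), at a mean of 0.794 TPM beside 0.110 TPM. Wwp2, a ubiquitin ligase gene whose product is known to bind SOX9, was at 79.8 to 114 TPM in P28 clones, below all 5 WT clones (120 to 191 TPM), and at 81.7 to 258 TPM in P4M clones. It was called lower in P28 clones against WT (-0.83 ± 0.220, SE; adjusted p = 0.00949, edgeR).

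**Figure D3:**
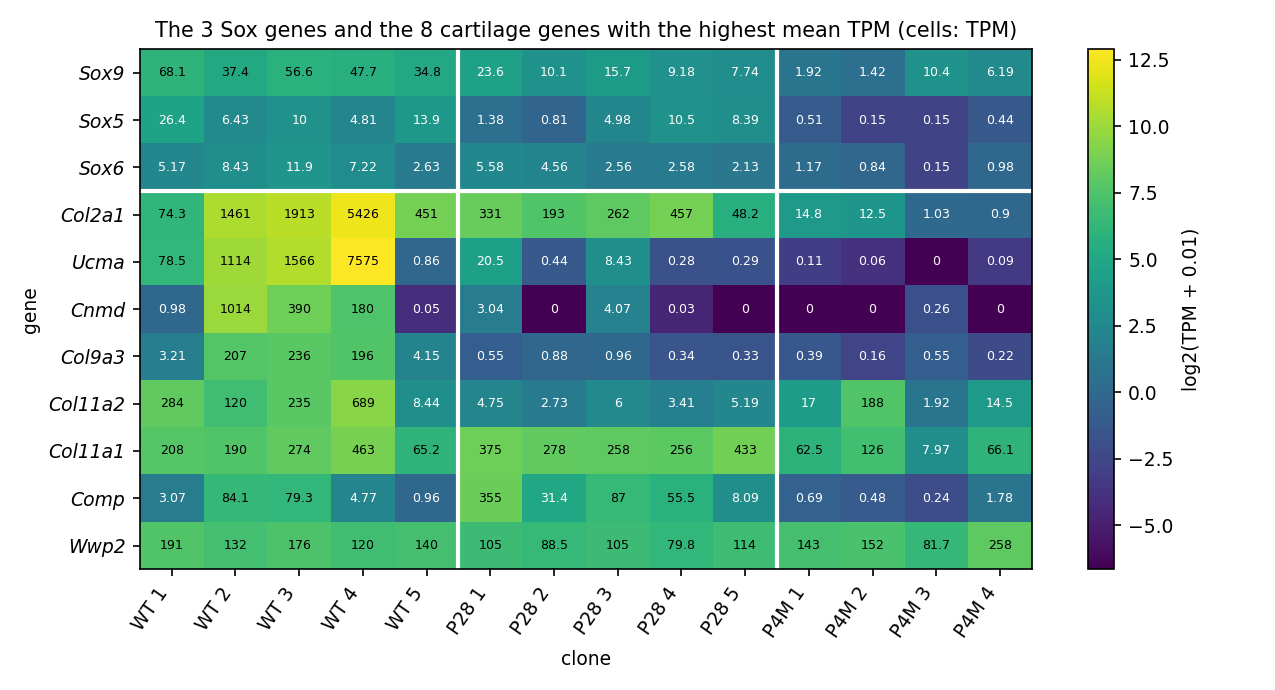
Heat map of log2(TPM + 0.01) for the 3 Sox genes and the 8 cartilage genes with the highest mean TPM (rows) in the 14 clones (columns), with the TPM printed in each cell. Col2a1, Ucma, Cnmd and Col9a3 are highest in WT clones 2 to 4 and lower in WT clones 1 and 5, while Sox9 stays between 34.8 and 68.1 TPM in all 5.

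Within groups the cartilage genes varied with Sox6 rather than with Sox9, as a description over the same 14 clones. All 17 had an r above 0 with Sox6 (median 0.56, from 0.20 for Hapln1 to 0.73 for Comp), beside 51.3% of all genes and a median of 0.01. With Sox9 11 of 17 lay above 0 (median 0.12), beside 51.0% of all genes. With Sox5 2 of 17 did (median -0.33), beside 48.4%. The 17 values come from the same clones and are not independent. Sox6 was at 40.4, 55.5 and 40.1 CPM in WT clones 2 to 4, beside 21.3 and 12.5 CPM in WT clones 1 and 5. Col2a1, Ucma, Cnmd and Col9a3 were also highest in WT clones 2 to 4. The number of listed genes at 1 TPM or more was 11, 17, 17, 18 and 8 in WT clones 1 to 5. It was 8 to 14 in the P28 clones and 5 or 6 in the P4M clones.

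Other members of the Sox family moved in both directions. Of 16 on the list 6 passed the filter, and 1 was called lower and 2 higher in cKO against WT clones, near the 25.7% and 23.1% of all genes. Sox13, the third gene of the group of Sox5 and Sox6, was at 0.00, 3.58, 2.25, 0.31 and 6.90 TPM in WT clones and between 0.12 and 1.37 TPM in cKO clones (log2 fold change -2.62 ± 0.903, SE; adjusted p = 0.028, edgeR). Sox8, of the same group as Sox9, was at 0.00 to 0.78 TPM in WT and 0.28 to 3.55 TPM in cKO clones (2.49 ± 0.859, SE; adjusted p = 0.0281, edgeR), a call that was lost without P28 clones 4 and 5 (adjusted p = 0.0699, edgeR). Both calls rested on single clones: Sox13 lost its call without WT clone 2 or 5 or P4M clone 1 or 4 (-2.47, -1.87, -2.52 and -2.60), and Sox8 without WT clone 2, 3 or 5 (2.25, 2.51 and 2.32), while without WT clone 4 the value for Sox8 was 3.67.

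Sox12 was at most 1.01 TPM in WT clones and 1.47 to 8.31 TPM in cKO clones, without overlap (4.14 ± 1.068, SE; adjusted p = 0.00617, edgeR), and the difference was 5.76 without WT clone 1. Its relatives Sox4 and Sox11, factors of progenitor cells, were not called in cKO against WT (log2 fold changes -0.02 ± 0.263 and 2.59 ± 1.062, SE), and the sign for Sox4 turned without scaling (0.04) and in several other fits. Without WT clone 5, the WT clone with the most Sox11 (1.59 TPM beside at most 0.05), Sox11 was called at 6.00. Sox4 was the most abundant Sox gene in the P28 clones, at 42.3 to 119 TPM. It was called lower in P4M than in P28 clones (-1.16 ± 0.324, SE; adjusted p = 0.0474, edgeR). Sox2 was not called, with 0 counts in 3 of the 5 WT clones.

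Upstream of the trio, Fgfr3, which encodes the receptor whose promoter drove the Cre, was at 5.31 to 54.6 TPM in WT and 1.23 to 18.3 TPM in cKO clones (-2.35 ± 0.615, SE; adjusted p = 0.0067, edgeR), and the difference was -3.28 without P28 clones 4 and 5. P28 clones 4 and 5, the clones with the most Sox5 of their group, also had the most Fgfr3, 18.3 and 10.9 TPM beside 1.23 to 3.79 TPM in clones 1 to 3. Of 16 inducers and partners, all of which passed the filter, 4 were called lower and 3 higher in cKO against WT, beside 25.7% of all genes called lower and 23.1% higher, so these counts lie near the background. The lower ones were Fgfr3, Gdf5 (a joint morphogen), Hif1a (the hypoxia factor) and Zfp219 (a SOX9 partner), and the higher ones were the morphogen genes Bmp2 and Bmp4 and the TGF-beta effector Smad3. Bmp4 was at most 8.11 TPM in WT and 42.4 to 144 TPM in cKO clones (6.48 ± 0.956, SE; adjusted p = 0.000159, edgeR), and 8.56 without WT clone 5. Hif1a lost its call without WT clone 1 (-0.41). The coactivator genes Crebbp, Ep300 and Med12 and the receptor gene Fgfr1 were not called, although Fgfr1 was without WT clone 1 (0.72). Gdf5, Zfp219, Bmp2, Smad3 and the coactivators were named after their values were seen.

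Of 13 genes of programs that oppose the chondrocyte program, 8 were called higher and 0 lower in cKO against WT, beside 23.1% of all genes called higher and 25.7% lower. These were the osteoblast factors Runx2 and Sp7, Ctnnb1 (beta-catenin), Twist1, Snai1, and the Notch pathway genes Notch2, Rbpj and Hes1. Without P28 clones 4 and 5, or without WT clone 3, 5 of the 13 were called. The call of Sp7 (4.83 ± 1.875, SE; adjusted p = 0.047, edgeR) was lost when any of 10 of the 14 clones was left out, with values of 4.5 to 4.98 (adjusted p up to 0.0854, edgeR), whereas without WT clone 5 it was 11.57 (adjusted p = 0.000589, edgeR). Of 10 genes of hypertrophic chondrocytes, 2 were called lower, Col10a1 and Foxa3, and 4 higher, Ihh, Pth1r, Mef2c and Runx3, the last 3 of which are also read in osteoblasts, beside the same shares of all genes. Col10a1 (type X collagen, the defining gene of hypertrophic cartilage) averaged 4.63 TPM in WT, 4.11 TPM in P28 and 0.055 TPM in P4M clones. Pth1r, the receptor of parathyroid hormone, was called higher by 3.10 ± 1.127 on the log2 scale (SE; edgeR adjusted p = 0.0357) and lost its call when any of 7 clones was left out, with values of 2.71 to 3.11 (adjusted p up to 0.0729, edgeR). Vegfa, Mmp13 and Ibsp were not called with all clones. Ibsp (bone sialoprotein, a matrix protein of osteoblasts and late chondrocytes) was at 0.00 TPM in WT clones 1 to 4 and 70.6 TPM in WT clone 5, and at 1.34, 0.47, 0.72, 405 and 135 TPM in P28 clones 1 to 5. Without WT clone 5, which leaves Ibsp at 0.00 TPM in every WT clone, it was called higher in cKO clones (adjusted p = 0.00854, edgeR). Several genes in this paragraph, Snai1, Notch2, Hes1, Col10a1, Foxa3, Ihh, Mef2c and Runx3, were named after their values were seen.

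The level of Runx2 against that of Sox9 separated the genotypes, as each gene did alone in TPM. Runx2 was at 15.0, 14.6, 15.8, 9.57 and 31.8 TPM in WT clones 1 to 5. It was at 34.4 to 59.9 TPM in P28 and 51.1 to 86.9 TPM in P4M clones. The ratio of Runx2 to Sox9 was 0.221, 0.390, 0.280, 0.200 and 0.913 in the WT clones. It was 1.75, 3.39, 2.29, 6.53 and 7.27 in the P28 clones and 34.6, 61.2, 4.93 and 11.6 in the P4M clones. Every WT clone thus had more Sox9 than Runx2 transcript per length and every cKO clone more Runx2 than Sox9. The log2 ratio was higher by 4.48 in the 9 cKO clones than in the 5 WT clones, a 22.2-fold difference. Its two-sided p by exact permutation was 0.000999, which is the lowest value attainable with 5 and 9 clones, and 0.016 after adjustment over 16 ratio tests. In P28 or P4M clones alone against WT the differences of 3.43 and 5.78 had exact permutation p-values of 0.00794 and 0.0159, also the smallest possible, and adjusted values of 0.0635 and 0.0847. In TPM, Sox9 was at 34.8 or more in WT and 23.6 or less in cKO clones. Runx2 was at 31.8 or less in WT and 34.4 or more in cKO clones. The ratio therefore had to separate WT from cKO clones. These permutation p-values had to be the smallest possible and add no evidence beyond the levels of each gene.

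**Figure D4:**
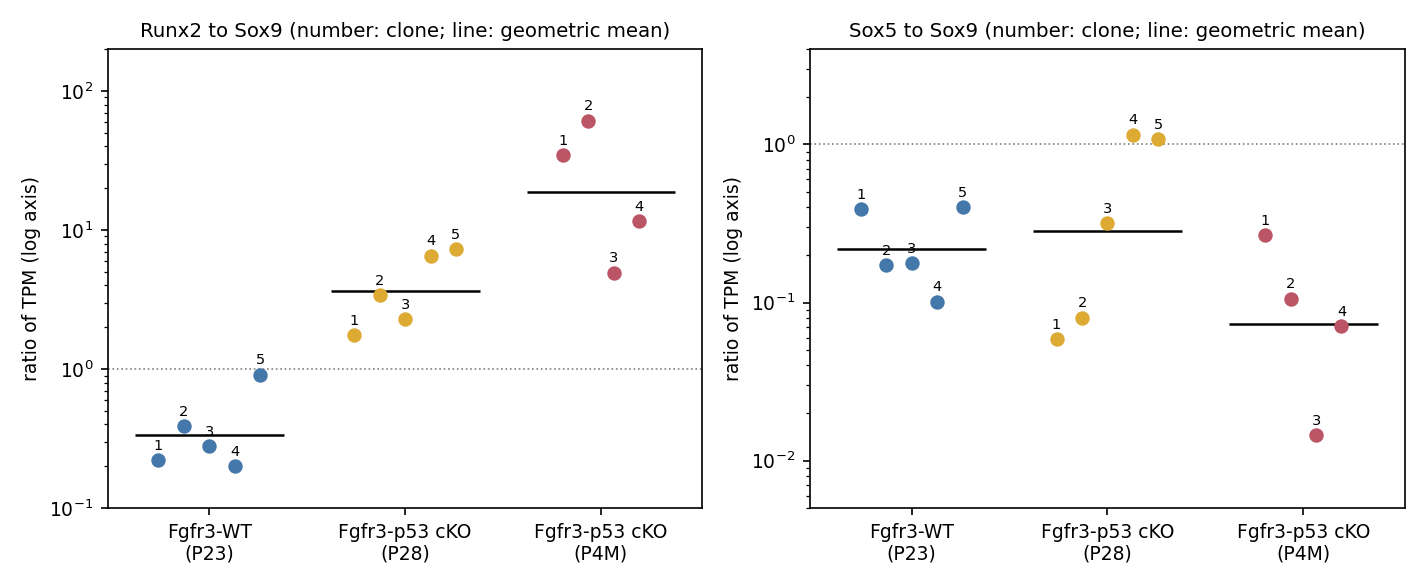
Ratio of TPM of Runx2 to Sox9 (left) and of Sox5 to Sox9 (right) on log axes in each clone (points, with the clone number), by group, with the geometric mean as a line and equal levels dotted. The Runx2 to Sox9 ratio is 0.200 to 0.913 in WT and 1.75 to 61.2 in cKO clones, while the Sox5 to Sox9 ratio passes 1 only in P28 clones 4 and 5.

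WT clone 5 was the WT clone nearest to the cKO clones in Sox9, Sox6, Runx2 and Sp7, but not in Sox5 or Col2a1. It had the highest Runx2 of its group and 19.4 TPM of Sp7, the osteoblast factor that acts after Runx2, beside at most 0.10 TPM in the other WT clones. Its Sox9 and Sox6 were the lowest of the WT clones, at 34.8 and 2.63 TPM. Its Sox5, at 13.9 TPM, lay above the 4.81 TPM of WT clone 4. Its Col2a1, at 451 TPM, lay above the 74.3 TPM of WT clone 1. Without WT clone 5, no call of a member in cKO against WT was lost. Sp7 was 1.98 to 5.54 TPM in P28 clones 1 to 3, 175 TPM in both P28 clones 4 and 5, and 68.3 to 335 TPM in P4M clones.

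Next to the trio, the neighbours in the genome moved in different directions. BC006965, a non-coding transcript gene on the minus strand whose start lies 0.248 kb from Sox9, was lower in cKO against WT clones (-2.89 ± 0.355, SE; adjusted p = 4.27e-05, edgeR). Its level was at most 1.89 TPM, and it was at 0.67 to 1.89 TPM in WT, 0.34 to 0.82 TPM in P28 and 0.02 to 0.13 TPM in P4M clones. Behind these values stood 14 to 49 counts in WT, 9 to 21 in P28 and 1, 1, 5 and 4 in P4M clones. P4M clones 1 and 2 thus lay below the floor of 3 counts. On the other side of Sox9, 256 kb away, 2610035D17Rik was called lower in P28 clones against WT (-1.49 ± 0.461, SE; adjusted p = 0.0206, edgeR). In cKO against WT it was not called with all clones (-0.80 ± 0.391, SE) and was called without WT clone 5 (-1.04; adjusted p = 0.0239, edgeR).

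The protein-coding neighbours of Sox5 lie 596 kb (Etnk1) and 212 kb (Bcat1) away. Etnk1, an ethanolamine kinase gene, was lower in cKO against WT clones (-1.92 ± 0.181, SE; adjusted p = 6.64e-06, edgeR), at 29.9 to 69.0 TPM in WT, 20.4 to 29.6 TPM in P28 and 5.50 to 10.3 TPM in P4M clones. Bcat1 was not called. Beside Sox6, 1110004F10Rik, whose start lies 0.601 kb from Sox6, fell by 0.45 ± 0.119 on the log2 scale in cKO against WT clones (SE; adjusted p = 0.00682, edgeR), a small difference beside the -3.04 of Sox6. On the other side Insc, at most 0.96 TPM in WT clones, stood at 3.66 to 20.1 TPM in P28 and 38.9 to 173 TPM in P4M clones.

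Levels over whole chromosomes also differed among the clones. Over 644 genes of chromosome 7, which holds Sox6, the median log2 shift against WT after removal of the shift of all autosomes was -0.63 in both P28 clones 4 and 5 and -0.64 to -0.69 in the 4 P4M clones. It was -0.10 to -0.24 in P28 clones 1 to 3 and -0.12 to 0.20 in WT clones. Sox6 was at 2.58 and 2.13 TPM in P28 clones 4 and 5, next to 2.56 TPM in clone 3. Its log2 differences from WT were -1.51 in P28 clones, a call that was lost without clones 4 and 5, and -4.57 in P4M clones. Over 477 genes of chromosome 6 (Sox5) the shift was -0.21 to -0.28 in all 9 cKO clones and -0.25 to 0.17 in WT clones, and over 781 genes of chromosome 11 (Sox9) it was -0.06 to 0.10 in cKO and -0.20 to 0.21 in WT clones. The part of these shifts in the levels of the 3 genes was not tested.

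By the deposited FPKM values (counts scaled by length and depth), the length assigned to Sox6 was shortest in P4M clones 1, 2 and 4. That of P4M clone 3 lay inside the WT range. Count divided by FPKM gave a length of 3.87 to 3.89 kb for Sox9 in every clone, close to its only transcript of 4.13 kb. For Sox6 it was 5.84 to 6.58 kb in WT and 4.72 to 6.64 kb in P28 clones, but 3.16, 1.45, 6.27 and 2.33 kb in P4M clones 1 to 4, at 112, 39, 32 and 85 counts. For Sox5 it was 3.81 to 5.41 kb in WT, 4.25 to 5.88 kb in P28 and 3.17 to 6.86 kb in P4M clones. A shorter length raises TPM at the same count. Sox6 differed less in TPM than in CPM, at means of 7.07, 3.48 and 0.785 TPM beside 34.0, 11.9 and 1.43 CPM in WT, P28 and P4M clones. Sox9, whose length hardly varied, also differed less in TPM, at means of 48.9, 13.3 and 4.97 TPM beside 143, 31.9 and 13.6 CPM. The part of the assigned length in these differences was not tested. Whether other transcripts or few reads lie behind the P4M lengths was not tested.

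**Figure D5:**
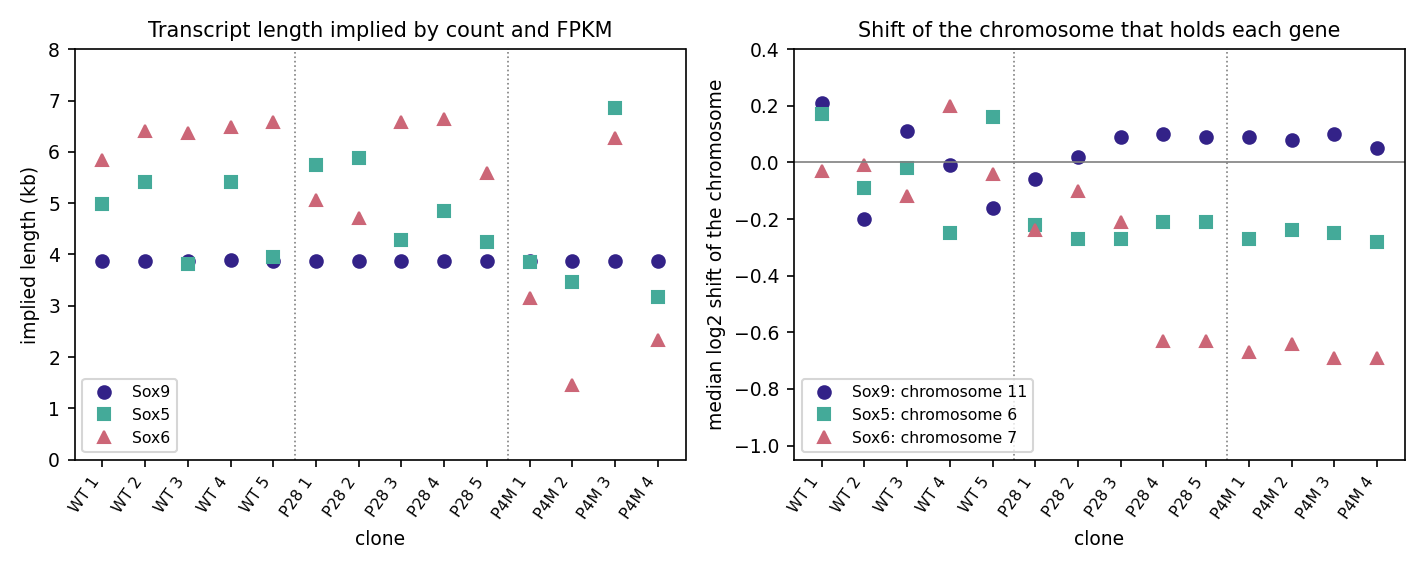
Left, length in kb implied by count and FPKM of each of the 3 genes in each clone. Right, median log2 shift of the chromosome that holds each gene against the WT mean. Sox9 stays at 3.87 to 3.89 kb while Sox6 falls to 1.45 kb in P4M clone 2, and the shift of chromosome 7 is -0.63 or lower in P28 clones 4 and 5 and in the 4 P4M clones.

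Marker lists of other cell types moved with the groups beside the trio. The summed TPM of 6 neural genes was 0.21 to 9.17 in WT, 15.2 to 47.1 in P28 and 76.9 to 115 in P4M clones, most of it from Tubb3 and Nes, with Olig2 at 0 counts in every clone. That of 8 stromal genes was 252 to 1678 in WT, 3856 to 7144 in P28 and 2684 to 9368 in P4M clones. Most of the difference in this sum lay in Col1a2 (means of 243, 5272 and 5180 TPM), which was not called, and Thy1 was called lower in P4M clones against WT (-7.59 ± 2.686, SE; adjusted p = 0.0338, edgeR). That of 8 immune genes was 5.54 to 66.0 in WT and 2.28 to 9.54 in cKO clones, with Cd68 the single gene at 1 TPM or more. For 8 glial and melanocyte genes it was 7.90 to 16.3 in WT and 3.48 to 8.26 in cKO clones, with Foxd3 at 0 throughout. For 6 endothelial genes it was at most 0.25 in WT and 3.26 in cKO clones, and for 6 muscle genes at most 3.62 and 0.55. In cKO against WT, 3 neural genes (Tubb3, Nes and Pax6), Csf1r and Kdr were called higher, Cd68, Mitf and Des lower, and 0 of the 8 stromal genes were called in that comparison. The part of these lists in the values of the 3 genes was not tested.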

How the data were processed

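Libraries were made with the SMART-Seq v4 kit and sequenced single-end for 50 cycles on a NovaSeq. TopHat and Bowtie2 were the authors' aligners (genome build mm10). By the methods, they counted reads that mapped without ambiguity with HTSeq and tested with DESeq2. Their deposited count table holds whole-number counts of 30503 genes without normalization, and the deposited expected count table gives the same values for these genes. A fit to the expected counts is therefore not a separate check for these genes. Whether the deposited counts leave out ambiguous reads was not tested. TPM and FPKM were deposited by the authors for each clone, and the program that made them is not given in the sources used here. Other deposited tables (normalized and rlog values) were not used here.

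Counts were fitted in 1 model with 3 group means by the robust quasi-likelihood test of edgeR 4.0.16 (R 4.3.3), with TMM scaling and filterByExpr, which kept 17358 genes. P-values were adjusted over all genes tested (Benjamini-Hochberg, FDR 0.05). The fit was tested on simulated data. CPM used TMM-scaled totals. Ratios were log2 of (TPM + 0.01) and were compared by exact permutation over clones. Correlations used deviations of log2 CPM from group means, for genes with a mean of at least 1, and chromosome shifts used genes with a mean of at least 3. Alternatives were DESeq2 1.42.0, other scalings and filters, the expected counts rounded to whole numbers, only the groups compared, no robust step, and each clone left out in turn. Leaving out P28 clones 4 and 5 together was chosen after seeing the data.

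Genes named were the trio, Trp53, other Sox genes that passed the filter, the 8 cartilage genes and the 4 genes of each other list with the highest mean TPM, Runx2 and Fgfr3, the nearest tested genes, and the 3 genes most like each member. Of these, 1 gene is not reported here. The members and lists were chosen with earlier results of these data known. Counting error is smallest in the deepest libraries: 3 counts, the floor, are 0.0564 to 0.121 CPM.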

Additional observations from a re-analysis of the deposited data

Results flagged for a closer look

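Among 46 named genes in 3 groups each (138 groups), 14 values stood apart from the rest of their group by Dixon's test. Chance alone flags about 1 in 20 groups only where values are normally distributed. Whether these values are was not tested, so the 14 cannot be set against that rate. All 14 were the highest of their group. In the trio the flagged value was Sox5 in WT clone 1, at 93.3 CPM. WT clone 5 stood apart for 5 genes, with Sox11 at 9.26 CPM, Ibsp (bone sialoprotein) at 92.9 CPM, Bmp4 at 2.77 CPM, Sp7 at 38.7 CPM and Runx2 at 94.0 CPM. In the other WT clones Ucma was at 3678 CPM in clone 4, Insc at 1.03 CPM in clone 2 and Mtmr4 at 48.3 CPM in clone 1. In P28 clones Comp was at 457 CPM in clone 1 and Rbpj at 378 CPM in clone 4. In P4M clones Col11a2 was at 577 CPM in clone 2, Bmp4 at 115 CPM in clone 3 and Cnmd at 0.0395 CPM in clone 3, which is below the floor of 3 counts.

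The change against WT differed between the cKO groups for Sox5, by -4.11 on the log2 scale in P4M against P28 clones, and for Sox6, by -3.06 (both called by edgeR in the test of the difference itself).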

How the results depend on the processing

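No paired analysis was possible because the replicate numbers were given in accession order and the labels pair no clones. For the trio, none of the settings fixed at the start removed a call or changed a direction. Sox5 in P28 against WT was called by DESeq2 (-1.48) and without P28 clones 4 and 5 (-2.60), and leaving out 1 clone gave -1.98 to -1.0. Sox6 in P28 against WT lost its call without P28 clones 4 and 5 (-1.31). Between P4M and P28 clones the count of called genes was 3051 with only those groups fitted, 2749 with DESeq2 and 480 (without P4M clone 1) to 2132 (without WT clone 1) with 1 clone left out, beside 1254. The called cartilage genes there, 4 as reported, numbered 2 without a filter, 7 with only those groups, 12 with DESeq2 and 1 to 6 with 1 clone left out. Where each clone had to hold at least 10 counts, fewer genes were tested, and called cartilage genes fell to 4 (P28 against WT), 5 (P4M against WT) and 4 (cKO against WT), other Sox genes to 0 and hypertrophic genes to 1. Other Sox genes called in cKO against WT were 5 without a filter, 5 with DESeq2 and 1 (without WT clone 2) to 3 with 1 clone left out, and the opposing genes 5 without P28 clones 4 and 5 and 5 (without WT clone 3) to 8 with 1 clone left out.

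The following changed sign, none of them called in either fit. With 1 TPM added, Sox5/Sox9 differed by 0.17 (P4M against WT) and 0.44 (cKO against WT) and Sox6/Sox9 by 0.13 (P4M against P28), and on CPM Sox6/Sox9 differed by -0.80 (P4M against WT). With 1 clone left out the ranges were -0.11 to 0.96 (Sox5/Sox9, P28 against WT), -0.23 to 1.54 (Sox6/Sox9, P4M against WT), -1.24 to 0.53 (Sox6/Sox9, P4M against P28) and -1.09 to 0.03 (Sox5/Sox6, P28 against WT). In cKO against WT, Sox4 turned to 0.04 without scaling, 0.05 without a filter and 0.14 without P28 clones 4 and 5. Vegfa turned to 0.08 without those clones, and Tbc1d19 to 0.01 (RLE scaling, and 10 counts in every clone), 0.02 (DESeq2), 0.05 (no scaling) and 0.06 (no filter). With 1 clone left out, Sox4 ranged from -0.15 to 0.14, Mmp13 from -1.12 to 0.39, Map2k1 from -0.03 to 0.08 and Tbc1d19 from -0.06 to 0.03. The cause was not tested. The Sox5 and Sox6 values of P4M clones rest on 16 to 112 counts, which limits their precision.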
